A study of Mus musculus with 12 samples.

Results

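The genes described here are the ligands, receptors and Smads of the TGF-beta pathway, a set of 10 genes taken by name: Tgfb1, Tgfb2, Tgfb3, Tgfbr1, Tgfbr2, Smad2, Smad3, Smad4, Smad7 and Ltbp1. All 10 were found among the 14188 genes with a protein-coding transcript in liver RNA from 12 animals (6 PZH, 6 control). They were represented by 24 of the 29883 listed protein-coding transcripts, out of 52 transcripts (33 of them protein-coding) that GENCODE M21 annotates for these genes on GRCm38. The samples were labelled as strain C57BL/8, while the study's methods name C57BL/6J males that were 6 weeks old when obtained. All 12 mice received CCl4, a solvent that injures hepatocytes and leads to fibrosis, in corn oil into the peritoneum. The PZH group also received Pien Tze Huang (PZH), a traditional Chinese medicine, into the stomach once a day, and the control group (labelled agent: none) received water instead. Both groups were sacrificed in the eighth week of the experiment, each sample was the liver of 1 mouse, and no mouse without CCl4 was analysed here.

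TGF-beta is secreted as an inactive dimer held by its own propeptide and tethered to the matrix by a latent TGF-beta binding protein such as Ltbp1. Once released, it binds the type II receptor Tgfbr2, which phosphorylates the type I receptor Tgfbr1, which in turn phosphorylates Smad2 and Smad3. These join the common partner Smad4 and enter the nucleus, where the inhibitory Smad7 is among the genes they induce. In the liver the pathway is known as a main driver of matrix production by activated hepatic stellate cells, and it also slows the division of hepatocytes.

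Expression was given as FPKM, the number of sequenced fragments relative to the length of the transcript and to the size of the library, so that genes can be set side by side. A gene's level is the sum of the FPKM of its protein-coding transcripts. Groups were compared on log2(FPKM + 1) with limma, a linear model fitted across all genes, with Benjamini-Hochberg adjustment over all 14188 genes or all 29883 transcripts, and a gene was called lower or higher at an adjusted p below 0.05. Where 2 values are set side by side without a label, the PZH group comes first. Changes are PZH minus control on that log2 scale, which understates the change of genes of low level. The RNA is that of whole liver, in which fewer cells of a type and less RNA per cell cannot be told apart.

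The PZH group had lower levels of 8 of the 10 genes: the ligands Tgfb1 and Tgfb2, both receptors, and all 4 Smads. The mean fell to 53.1% of the control mean for Smad7, 55.0% for Tgfb2 and 60.2% for Smad3. The other 5 stood between 71.3% (Tgfb1) and 80.3% (Smad2). The main transcript of Tgfb2, Tgfb2-201, stood at 67.9% when taken alone. Tgfb3 and Ltbp1 were not called, and 0 of the 10 genes were higher. The levels of Tgfb2 and Smad2 depend on how reads were divided between their transcripts, as described below. Lower calls were common in these livers, since 32.1% of all genes were called lower and 12.7% higher. With the unadjusted P of limma, none of the 10 passed the study's own limits of a 2-fold change and a P of 0.05. Of all genes, 2.5% passed them in the lower direction. The 6 PZH mice lay below the 6 control mice without overlap for 4 of the 10 genes (Tgfb1, Smad2, Smad3 and Smad7), as they did for 17.9% of all genes. The median change of the 10 genes was -0.37, against -0.11 over all genes.

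**Figure D1:**
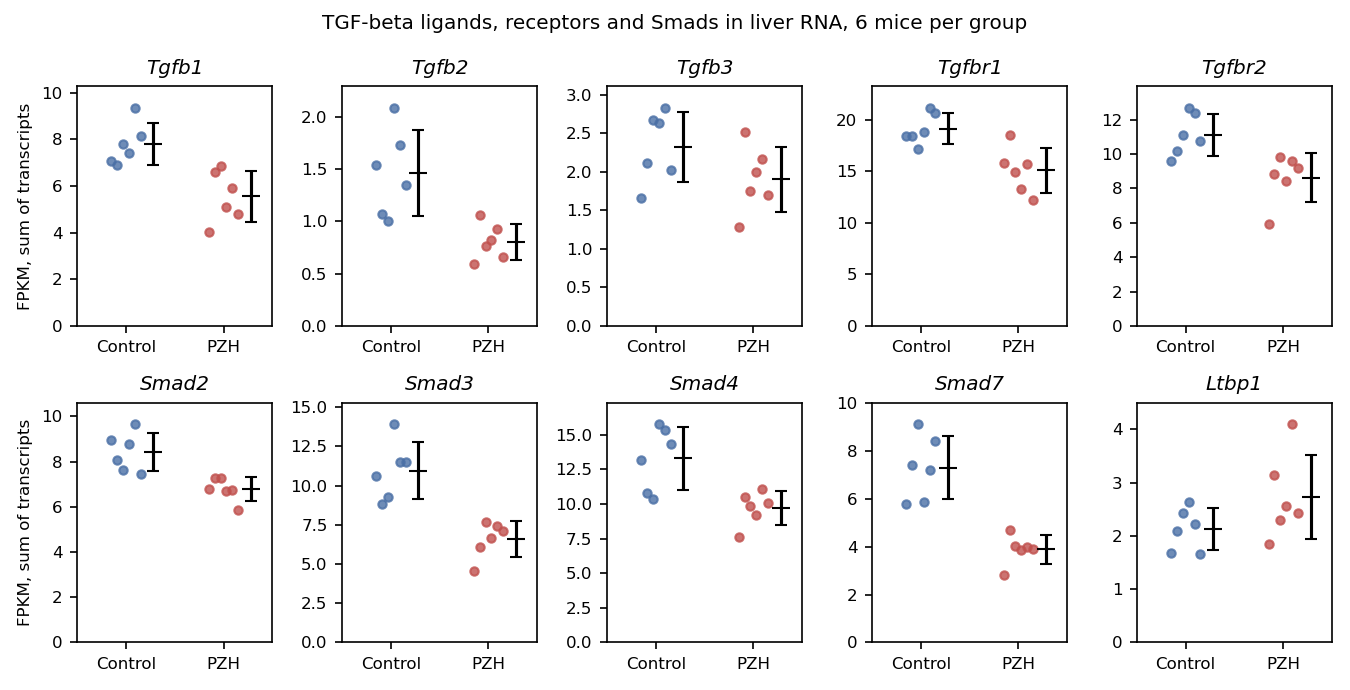
Level of each gene (FPKM, sum of its protein-coding transcripts, linear axis from 0) in each mouse of the control group (blue) and the PZH group (red), with the mean and SD of 6 mice as a black bar. The 6 red points lie below the 6 blue points for Tgfb1, Smad2, Smad3 and Smad7, and the groups overlap in the other 6 panels.

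Since more genes were lower than higher, the comparison was repeated after dividing each mouse by a median-ratio scale factor, the median over genes of its level relative to the geometric mean of all mice. Transcripts had factors of their own, taken over transcripts (0.856 to 1.02 in PZH mice and 1.04 to 1.12 in control mice). The gene factors were 0.875 to 1.005 in PZH mice and 1.03 to 1.11 in control mice, and the median change over all genes then became -0.001. On that scale 4 of the 10 genes were lower (Tgfb1, Tgfb2, Smad3 and Smad7), Ltbp1 was higher, and Tgfbr1, Tgfbr2, Smad2 and Smad4 were no longer called. Of all genes, 19.3% were lower and 19.8% higher on that scale, and the median change of the 10 genes was -0.20. Albumin (Alb), the main secreted protein of hepatocytes, moved with the groups, with 5.54% to 8.86% of the FPKM sum in control mice and 10.2% to 12.7% in PZH mice. Its part in the lower levels of other genes was not tested.

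**Figure D2:**
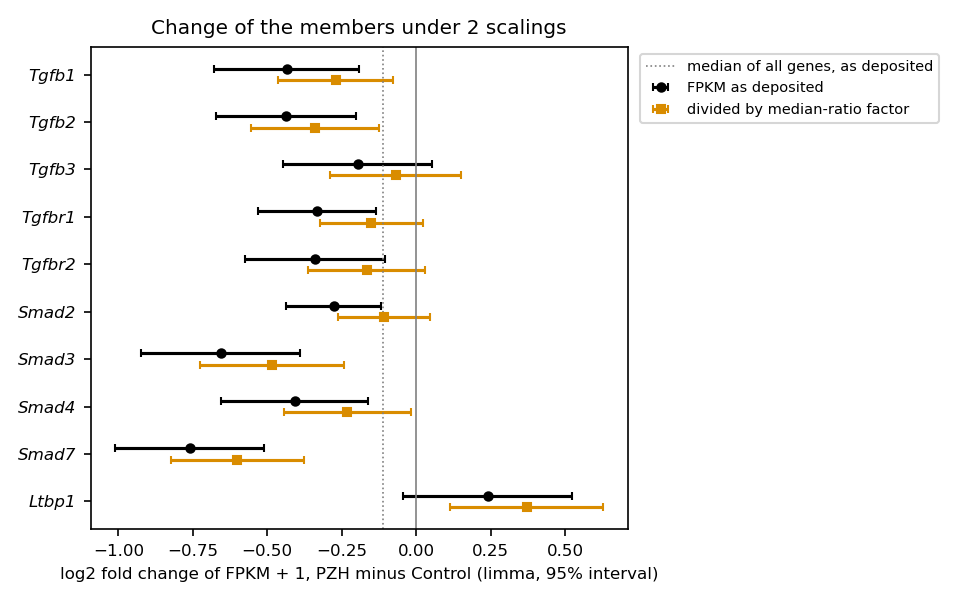
Change of the 10 genes (log2 of FPKM + 1, PZH minus control, with the 95% interval of limma, 6 mice per group) on the deposited values (black circles) and after division by a median-ratio factor (orange squares). The dotted line is the median of all genes on the deposited values (-0.11), and on the second scale the intervals of Tgfbr1, Tgfbr2 and Smad2 reach 0 while that of Ltbp1 lies above it.

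Among the ligands, Tgfb1 is the form made by macrophages and stellate cells of injured liver. Its gene lies at chr7:25687002-25705077. In the control mice its level was 6.92, 7.62 and 9.36 FPKM (lowest, median and highest), and in PZH mice it was 4.01, 5.52 and 6.87 FPKM. The groups did not overlap, though the gap between PZH 3 (6.87) and control 2 (6.92) was narrow. The means were 5.56 ± 1.11 FPKM in the PZH group against 7.79 ± 0.898 FPKM among controls (SD, n = 6), a change of -0.44 (SE 0.11, limma adjusted p = 0.00698). Under the median-ratio factor the change was -0.27 (limma adjusted p = 0.0294). A single transcript, Tgfb1-201, carried all of the listed Tgfb1 level, and it was called lower among transcripts as well (limma adjusted p = 0.0196). That transcript call was lost under the median-ratio factor (limma adjusted p = 0.0511).

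Tgfb2 (chr1:186622792-186705989) was the ligand of lowest level. Control mice had 1.002, 1.44 and 2.09 FPKM (lowest, median and highest), and PZH mice 0.591, 0.797 and 1.06 FPKM. The groups overlapped only through PZH 2 (1.06) and control 3 (1.002), and the other PZH mice lay below every control mouse. The means of 0.805 ± 0.171 and 1.46 ± 0.412 FPKM differed by -0.44 (SE 0.11, limma adjusted p = 0.0055), and by -0.34 under the median-ratio factor (limma adjusted p = 0.0163). Tgfb2 was listed as a common transcript, Tgfb2-201, and a rarer one, Tgfb2-206, which holds 84 additional bases. Tgfb2-206 was listed at 0 in 3 PZH mice and ranged up to 0.125 FPKM in that group. In control mice 1 to 6 it had 0.707, 0.00672, 0.00382, 0.995, 0.228 and 0.00869 FPKM, so it raised the gene sum mainly in control 1 and control 4. By Tgfb2-201 alone, PZH 2 (1.05 FPKM) and PZH 5 (0.925) lay above control 1 (0.832). The part that the division of reads between these forms has in the gene sum was not tested. Neither was called alone, with limma adjusted p values of 0.0584 for Tgfb2-201 and 0.255 for Tgfb2-206, so that the call of Tgfb2 exists for the gene sum and not for a transcript. The additional bases of Tgfb2-206 (capitals) are shown with 24 flanking bases on each side, since they are what parts the listed forms of this ligand. They lie at chr1:186690721-186690804 on the minus strand and are printed 5′ to 3′ from the GENCODE M21 transcripts.
Tgfb2-206: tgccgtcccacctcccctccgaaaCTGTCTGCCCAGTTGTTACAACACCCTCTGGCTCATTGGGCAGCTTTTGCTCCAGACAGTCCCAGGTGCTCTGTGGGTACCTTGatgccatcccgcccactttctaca
Tgfb2-201: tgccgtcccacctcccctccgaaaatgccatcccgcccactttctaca

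Tgfb3 (chr12:86056745-86079041) was between the other ligands in level. Control mice had 1.66, 2.38 and 2.83 FPKM (lowest, median and highest), and PZH mice 1.28, 1.87 and 2.51 FPKM. The groups overlapped widely. The change of -0.20 had an interval from -0.45 to 0.05 (limma adjusted p = 0.187), and it was -0.07 under the median-ratio factor (limma adjusted p = 0.629). Tgfb1 made up 67.2% ± 3.23 of the summed FPKM of the 3 ligands in the PZH group against 67.4% ± 3.30 among controls. Tgfb2 made up 9.75% ± 0.877 in the PZH group against 12.6% ± 3.07 among controls, and Tgfb3 23.0% ± 2.46 and 20.0% ± 2.66. All 3 percentages overlapped between the groups. By group means the order of the ligands was Tgfb1, Tgfb3, Tgfb2 in both.

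Ltbp1, which binds the latent ligand to the matrix, was the only one of the 10 genes with a higher mean in the PZH group. Its gene lies at chr17:75005568-75392512. Control mice had 1.65, 2.16 and 2.63 FPKM (lowest, median and highest), and PZH mice 1.84, 2.49 and 4.10 FPKM. The groups overlapped, with PZH 5 (4.10) and PZH 2 (3.14) above every control mouse. The change of 0.24 (interval -0.04 to 0.52) was not called on the deposited values (limma adjusted p = 0.157), and the change of 0.37 under the median-ratio factor was called (limma adjusted p = 0.0247). Without PZH 5 the change on the deposited values was 0.14 (limma adjusted p = 0.319), and that of Ltbp1-202 was 0.08. Relative to Tgfb1, the Ltbp1 level was 0.494 ± 0.115 in PZH mice (0.334 to 0.691) and 0.275 ± 0.0570 in control mice (0.202 to 0.354), a ratio that no common scale factor alters. Only PZH 3 (0.334) lay within the control range, and PZH 5 had the highest ratio. The listed transcripts were a long form that starts upstream, Ltbp1-201, and the short forms Ltbp1-202 and Ltbp1-203, and the commonest, Ltbp1-202, had 2.15 ± 0.764 and 1.71 ± 0.244 FPKM (change 0.19, limma adjusted p = 0.405). None of the 3 was called.

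The type I receptor Tgfbr1 (chr4:47353222-47414931) had the highest level of the 10 genes in both groups. Control mice had 17.1, 18.7 and 21.2 FPKM (lowest, median and highest), and PZH mice 12.2, 15.3 and 18.5 FPKM. The groups overlapped through PZH 2 (18.5), while the other 5 PZH mice lay below every control mouse. The means of 15.1 ± 2.20 and 19.1 ± 1.52 FPKM differed by -0.33 (SE 0.09, limma adjusted p = 0.0105), and by -0.15 under the median-ratio factor, which was not called (limma adjusted p = 0.156). Of the 4 listed transcripts Tgfbr1-201 carried 86.7% ± 0.761 of the gene sum in the PZH group against 87.7% ± 1.53 among controls, and it was called lower (change -0.35, SE 0.10, limma adjusted p = 0.0236), a call lost without PZH 4 or control 5 or 6 (adjusted p = 0.0513 to 0.0548). The remaining 3 transcripts had group means of 0.233 to 1.29 FPKM and were not called. Tgfbr1-202 lacks 12 bases that Tgfbr1-201 holds (capitals below, chr4:47393247-47393258, plus strand), a difference of whole codons, and its share of the gene sum was 6.48% ± 2.39 and 6.67% ± 2.09. The stretch is shown because it is the smallest difference between listed receptor forms.
Tgfbr1-201: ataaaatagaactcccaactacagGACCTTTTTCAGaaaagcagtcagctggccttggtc
Tgfbr1-202: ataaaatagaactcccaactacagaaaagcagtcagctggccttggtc

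The type II receptor Tgfbr2 (chr9:116084293-116175360), which binds the ligand first, was also lower. Control mice had 9.58, 11.0 and 12.7 FPKM (lowest, median and highest), and PZH mice 5.94, 9.02 and 9.80 FPKM. The groups overlapped narrowly, and PZH 1 (5.94) lay well below the other PZH mice (8.45 to 9.80). The means of 8.64 ± 1.41 and 11.1 ± 1.23 FPKM differed by -0.34 (SE 0.11, limma adjusted p = 0.022), and by -0.17 under the median-ratio factor, which was not called (limma adjusted p = 0.168). Without control 5 the gene was just past the threshold (change -0.31, limma adjusted p = 0.0501), the only call among the 10 genes that leaving out 1 mouse ended. PZH 1 was the lowest PZH mouse for 8 of the 10 genes on both scales, and without it the same 8 calls were made.

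Both annotated forms of Tgfbr2 were listed. Tgfbr2-202, the form with 75 additional bases in the part that encodes the extracellular region, held 75.3% ± 2.19 of the gene sum in the PZH group against 73.5% ± 3.39 among controls. The shorter Tgfbr2-201 was called lower, with 2.13 ± 0.356 and 2.94 ± 0.397 FPKM (change -0.34, SE 0.09, limma adjusted p = 0.0248), a call lost without PZH 4 or control 5 (adjusted p = 0.054 in both cases). Tgfbr2-202 was not called, with 6.51 ± 1.12 and 8.18 ± 1.09 FPKM (change -0.30, SE 0.12, limma adjusted p = 0.106). The shares of the forms overlapped between the groups (two-sided exact permutation test, p = 0.292), so a call for one form and not for the other does not show that they changed differently. The additional bases, which set the forms apart, are in capitals (chr9:116158271-116158345, minus strand).
Tgfbr2-202: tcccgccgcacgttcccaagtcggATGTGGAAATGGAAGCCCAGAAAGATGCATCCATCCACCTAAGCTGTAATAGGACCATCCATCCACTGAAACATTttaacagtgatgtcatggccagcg
Tgfbr2-201: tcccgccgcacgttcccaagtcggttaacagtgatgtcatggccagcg
The ratio of Tgfbr1 to Tgfbr2 was 1.80 ± 0.493 in PZH mice and 1.73 ± 0.188 in control mice, with PZH 1 highest at 2.67.

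Smad3 (chr9:63646767-63757994), which binds DNA directly once phosphorylated, fell to 60.2% of the control mean. Control mice had 8.85, 11.1 and 13.9 FPKM (lowest, median and highest), and PZH mice 4.55, 6.88 and 7.67 FPKM. The groups did not overlap. The means of 6.59 ± 1.14 and 10.9 ± 1.83 FPKM differed by -0.66 (SE 0.12, interval -0.92 to -0.39, limma adjusted p = 0.000934), and by -0.48 under the median-ratio factor (limma adjusted p = 0.00405). Nearly all of the level was that of Smad3-201, the form with the whole coding sequence, at 6.49 ± 1.11 and 10.6 ± 1.77 FPKM (change -0.63, SE 0.13, limma adjusted p = 0.00428). Its values did not overlap between the groups, and it was also called under the median-ratio factor (limma adjusted p = 0.0123). The rare Smad3-205, a short transcript with 744 bases, was lower as well, from 0.375 ± 0.170 FPKM in the control group to 0.0997 ± 0.126 FPKM in the PZH group (change -0.32, SE 0.10, limma adjusted p = 0.0459). This second call lay close to the threshold and was lost without any one of 10 of the 12 mice (limma adjusted p = 0.0681 to 0.0948), all but PZH 6 and control 1.

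Smad2 (chr18:76241580-76310963), the other receptor-activated Smad of the pathway, fell less. Control mice had 7.46, 8.43 and 9.65 FPKM (lowest, median and highest), and PZH mice 5.84, 6.75 and 7.30 FPKM. The groups did not overlap, and the lowest control mouse, control 6 (7.46), stood next to PZH 2 (7.30). The means of 6.77 ± 0.533 and 8.43 ± 0.846 FPKM differed by -0.28 (SE 0.07, limma adjusted p = 0.00815), and by -0.11 under the median-ratio factor, which was not called (limma adjusted p = 0.254). The ratio of Smad3 to Smad2 was 0.980 ± 0.197 in PZH mice (0.671 to 1.22) and 1.302 ± 0.206 in control mice (1.09 to 1.58), with overlap.

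The listed transcripts of Smad2 differ in an exon. Smad2 has a coding exon of 90 bases (chr18:76286860-76286949, exon 3 of Smad2-205), which encodes an insert near the DNA-binding hairpin of the protein and is known to keep the full-length form from binding DNA directly. Smad2-205 and Smad2-201 hold it and share 1 coding sequence of 1401 bases, while Smad2-202 (1311 coding bases) and Smad2-203 (1302 coding bases) skip it. Smad2-203 has a different end of the coding sequence too, and only 3 of its 1305 bases lie outside it, whereas Smad2-205 spans 8089 bases.

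The lower Smad2 values lay in the transcripts without this exon. Their summed level was 4.53, 4.24, 3.24, 3.63, 4.90 and 2.79 FPKM in control mice 1 to 6, and 2.04, 2.79, 0.230, 0.154, 0.206 and 1.87 FPKM in PZH mice 1 to 6. PZH 3, 4 and 5 were near 0, and in these 3 mice Smad2-202 was listed at 0, while PZH 2 reached the level of the lowest control mouse. The means were 1.21 ± 1.16 and 3.89 ± 0.809 FPKM. The transcripts with the full coding sequence had 5.30 ± 1.29 FPKM in the PZH group (3.801 to 6.53) against 4.33 ± 0.384 FPKM among controls (3.84 to 4.74), with PZH 3, 4 and 5 above every control mouse. In percent of the Smad2 sum, the transcripts without the exon made up 2.30% to 38.3% in PZH mice and 37.3% to 52.5% in control mice, so that the groups overlapped only through PZH 2 and control 6.

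**Figure D3:**
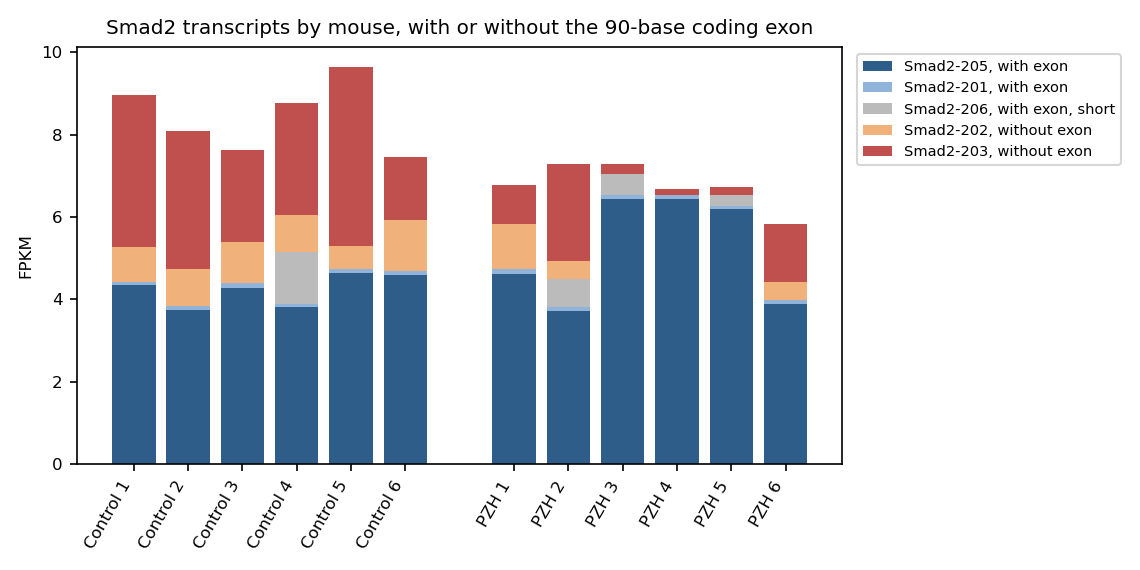
Level of the 5 listed Smad2 transcripts (FPKM, stacked to the gene sum, linear axis from 0) in each mouse, with the transcripts that hold the 90-base exon in blue and grey and those without it in orange and red. The orange and red parts add to 2.79 to 4.90 FPKM in control mice and to 0.154 to 2.79 FPKM in PZH mice, where PZH 3, 4 and 5 are almost wholly blue and grey.

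Tested alone, Smad2-203 was the only one of the 24 transcripts to pass the study's 2-fold limits, as 1.99% of all transcripts did in the lower direction. The unadjusted P was that of limma. The study, which does not name its test, reported fewer lower protein-coding transcripts, and more higher than lower ones. Its discussion names Smad2 as an example among its changed transcripts or proteins. Smad2-203 had 0.886 ± 0.886 and 2.98 ± 1.02 FPKM (change -1.16, SE 0.28, limma adjusted p = 0.0128). It was also called under the median-ratio factor (change -1.05, limma adjusted p = 0.0252). Smad2-202 was called near the threshold, with a median of 0.209 and 0.896 FPKM (change -0.57, SE 0.18, limma adjusted p = 0.0442), and it lost the call without any one of 10 of the 12 mice (limma adjusted p = 0.0534 to 0.0947), all but PZH 1 and control 5. Smad2-205, the commonest form, was not called at 5.22 ± 1.29 and 4.24 ± 0.384 FPKM (change 0.22, interval -0.06 to 0.51, limma adjusted p = 0.271). As a share of the gene sum, Smad2-205 made up 77.2% ± 17.9 (PZH) and 50.7% ± 6.78 (control) (two-sided exact permutation test over all labellings of the mice, p = 0.00866, adjusted p = 0.239) and Smad2-203 made up 13.2% ± 12.8 and 34.8% ± 9.31 (exact p = 0.0152, adjusted p = 0.281). These differences of share therefore did not pass adjustment over the 22918 transcripts of genes with more than 1 listed form. In PZH 3, 4 and 5 the forms with the exon were high where those without it were near 0. The part that StringTie's division of reads between overlapping forms has in this was not tested. FPKM is relative to length, and the Smad2 forms differ in length. The lower Smad2 sum and its lack of overlap between the groups therefore depend on that division too.

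Smad4 (chr18:73639009-73703780), the partner shared with the bone morphogenetic protein (BMP) branch, was lower too. Control mice had 10.3, 13.8 and 15.8 FPKM (lowest, median and highest), and PZH mice 7.603, 9.96 and 11.1 FPKM. The groups overlapped through control 2 (10.8) and control 3 (10.3). The means of 9.72 ± 1.22 and 13.3 ± 2.28 FPKM differed by -0.41 (SE 0.11, limma adjusted p = 0.0114), and by -0.23 under the median-ratio factor, which was not called (limma adjusted p = 0.081). Its main transcript Smad4-201 did not overlap between the groups, at 7.001 to 9.63 FPKM in PZH mice and 9.70 to 15.4 FPKM in control mice (change -0.45, SE 0.12, limma adjusted p = 0.0228, and 0.0522 without control 5). The second transcript, Smad4-202, had 0.874 ± 0.390 and 0.759 ± 0.280 FPKM and was not called.

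Smad7 (chr18:75367529-75395935), which binds the activated type I receptor and brings ubiquitin ligases to it, had the lowest p of the set. Control mice had 5.80, 7.31 and 9.12 FPKM (lowest, median and highest), and PZH mice 2.84, 3.94 and 4.71 FPKM. The groups stood apart by more than 1 FPKM, from PZH 2 (4.71) to control 1 (5.80). The means of 3.88 ± 0.601 and 7.31 ± 1.33 FPKM differed by -0.76 (SE 0.12, interval -1.01 to -0.51, limma adjusted p = 0.000227), and by -0.60 under the median-ratio factor (limma adjusted p = 0.000609). Its main transcript Smad7-201 was called with a change of -0.78 (SE 0.12, limma adjusted p = 0.000938), and with -0.63 under the median-ratio factor (limma adjusted p = 0.0017). The rare Smad7-204 was at 0.137 ± 0.0324 and 0.128 ± 0.0185 FPKM, so its share of the gene sum was 3.61% ± 1.08 in the PZH group against 1.79% ± 0.343 among controls (exact p = 0.00433, adjusted p = 0.179).

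Set against the other Smads, the inhibitor had 0.399 ± 0.0322 of the level of Smad4 in PZH mice (0.359 to 0.447) and 0.573 ± 0.188 in control mice (0.373 to 0.881). It had 0.597 ± 0.0920 of the level of Smad3 in PZH mice and 0.691 ± 0.203 in control mice. Both ratios overlapped between the groups, and the control mice were spread more widely than the PZH mice. The genes whose levels varied most like Smad7 within the groups, by the root mean square difference of standardised values over 12 mice, were Ttll12 (0.387), Akr7a5 (0.411) and Bri3bp (0.439). For Smad3 they were Cyth1 (0.303), Dennd5a (0.329) and Bmp2 (0.333), against a median difference of 1.31 over 10948 genes in both cases. These are the smallest differences picked from all of those genes. Whether they are smaller than unrelated genes would give was not tested.

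In the control group the order of levels was Tgfbr1 (19.1 FPKM), Smad4 (13.3), Tgfbr2 (11.1), Smad3 (10.9), Smad2 (8.43), Tgfb1 (7.79), Smad7 (7.31), Tgfb3 (2.32), Ltbp1 (2.12) and Tgfb2 (1.46). In the PZH group it was Tgfbr1 (15.1 FPKM), Smad4 (9.72), Tgfbr2 (8.64), Smad2 (6.77), Smad3 (6.59), Tgfb1 (5.56), Smad7 (3.88), Ltbp1 (2.73), Tgfb3 (1.90) and Tgfb2 (0.805). In the control group the ranges of neighbours overlapped except those of Tgfbr1 and Smad4 and those of Smad7 and Tgfb3, and in the PZH group except those of Tgfbr1 and Smad4 and those of Tgfb3 and Tgfb2. Smad3 and Smad2 exchanged places between the groups, as did Tgfb3 and Ltbp1, and each of these pairs overlapped within both groups.

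At the level of transcripts, 9 of the 24 were called lower and 0 higher, where 14.0% of all transcripts were lower and 5.73% higher. The 9 were Tgfb1-201, Tgfbr1-201, Tgfbr2-201, Smad2-202, Smad2-203, Smad3-201, Smad3-205, Smad4-201 and Smad7-201. Under the median-ratio factor Smad2-203, Smad3-201 and Smad7-201 were called, where 8.33% of all transcripts were lower. The groups did not overlap for 4 of the 24 (Tgfb1-201, Smad3-201, Smad4-201 and Smad7-201), as for 8.58% of all transcripts. Of the 22 transcripts in the 8 genes with more than 1 listed form, 4 had an exact p for their share under 0.05 and 0 passed adjustment, while 11.3% of all tested transcripts had such a p and 0 passed. The 4 were Smad2-203, Smad2-205, Smad7-201 and Smad7-204. Shares within a gene add to the whole, so they are not independent, and the Smad7 forms repeat the same comparison (exact p = 0.00433 for each). The limit on the exact p given above applies here too. With limma on the share in place of the exact test, 0 of the 22 were called, and 0.332% of all.

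The other genes of the pathway were taken from 7 lists by function, of which 82 of 86 genes had a level. Of the 82, 44 were lower, 2 higher and 36 not called, with a median change of -0.28, and 11 of the lower ones passed the 2-fold limits. In percent that is to be read against the 32.1% of all genes that were lower, the 12.7% that were higher and the 2.5% that passed the 2-fold limits downwards. Under the median-ratio factor 29 were lower and 7 higher, with a median change of -0.14, where 19.3% and 19.8% of all genes were called. These shares over all genes apply to each list that follows, and lists with 4 of 9 or 7 of 15 genes lower lie not far from them.

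Latency and activation of the ligand was represented by 15 genes, 7 of them lower and 0 higher (4 and 2 under the median-ratio factor). Thbs1, thrombospondin 1, which releases TGF-beta from its latent form, had 12.7 to 36.4 FPKM in control mice and 2.09 to 4.23 FPKM in PZH mice, without overlap. Its change was -2.54 (SE 0.23, limma adjusted p = 1.39e-05). Itgb3, an integrin subunit that can pull on the latent complex, fell from 3.31 ± 0.395 to 1.47 ± 0.368 FPKM (change -0.81, limma adjusted p = 7.2e-05). Nrros, the tether of latent TGF-beta on macrophages, fell from 5.90 ± 1.35 to 3.86 ± 0.542 FPKM (change -0.49, limma adjusted p = 0.00524). Itgav, the partner of these integrin subunits, fell from 13.5 ± 2.65 to 9.54 ± 2.65 FPKM (change -0.47, limma adjusted p = 0.0295). Its call was lost under the median-ratio factor (adjusted p = 0.155) and without PZH 1, 3, 5 or 6 or control 4 or 5 (adjusted p = 0.0537 to 0.0665).

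Among 5 co-receptors and endothelial receptors, 3 were lower and 0 higher (1 and 0 under the median-ratio factor). Vasn, a membrane protein that traps the ligand, had 8.42 to 9.32 FPKM in control mice and 4.19 to 7.66 FPKM in PZH mice (change -0.51, limma adjusted p = 0.002). Acvrl1, a type I receptor of endothelium, changed by -0.34 (limma adjusted p = 0.00931, and 0.0605 under the median-ratio factor) and Cd109, present at 0.0289 ± 0.0132 and 0.217 ± 0.178 FPKM, by -0.23 (limma adjusted p = 0.0425). The call of Cd109 was lost under the median-ratio factor (adjusted p = 0.0548) and without any one mouse other than control 1 and control 3 (limma adjusted p = 0.06 to 0.0815). The co-receptors betaglycan (Tgfbr3) and endoglin (Eng) were not called, at 4.98 ± 1.06 and 5.30 ± 0.382 FPKM (limma adjusted p = 0.518) and at 14.3 ± 2.69 and 15.7 ± 1.38 FPKM (limma adjusted p = 0.351). Their changes were -0.10 and -0.15 on the deposited values and turned to 0.06 and 0.03 under the median-ratio factor.

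Of 16 inhibitors and turnover factors, 8 were lower and 1 higher (4 and 2 under the median-ratio factor). Several of these are themselves induced by the pathway, like Smad7. Tgif1, a repressor that binds Smads, fell from 16.9 ± 3.25 to 7.06 ± 1.60 FPKM (change -1.15, limma adjusted p = 0.00012). Skil, a repressor known as SnoN, fell from 8.35 ± 1.42 to 4.38 ± 1.101 FPKM (change -0.81, limma adjusted p = 0.000401). Its relative Ski had 10.3 to 12.7 FPKM in control mice and 2.03 to 10.05 FPKM in PZH mice (change -0.75, limma adjusted p = 0.0325, and 0.0775 under the median-ratio factor). The call of Ski was lost without PZH 6 or control 1, 5 or 6 (limma adjusted p = 0.0517 to 0.0716). The ubiquitin ligase Smurf1 changed by -0.46 (limma adjusted p = 0.00647). Wwp1, another ligase, was the gene called higher, at 27.9 ± 1.34 against 22.7 ± 1.21 FPKM (change 0.28, limma adjusted p = 0.00128). Smad6, the inhibitory Smad of the BMP branch, was just outside the threshold at 2.18 ± 0.362 and 2.70 ± 0.270 FPKM (change -0.22, limma adjusted p = 0.0503), and it was called lower without PZH 5 (adjusted p = 0.0361) or control 4 (adjusted p = 0.0382). Pmepa1 and Bambi, inhibitors that are TGF-beta targets in other cells, were not called, with changes of -0.15 (limma adjusted p = 0.187) and 0.07 (limma adjusted p = 0.62).

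Of 9 Smad anchors and partners, 4 were lower and 0 higher (2 and 0 under the median-ratio factor). Atf3, a stress-induced transcription factor that joins Smad3, fell from 24.1 ± 6.76 to 5.11 ± 1.20 FPKM (change -2.01, limma adjusted p = 2.01e-05). Runx1 changed by -0.74 (limma adjusted p = 0.000254) and Zfyve9, the anchor of Smad2 at endosomes, by -0.24 (limma adjusted p = 0.00704). Under the median-ratio factor the change of Zfyve9 was -0.07 and was not called (limma adjusted p = 0.393). The general factor Sp1 changed by -0.17 (limma adjusted p = 0.0171), and by 0.01 under the median-ratio factor, where it was not called.

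Of 9 Smads, receptors and targets of the BMP branch, 4 were lower and 0 higher (3 and 0 under the median-ratio factor). The direct BMP targets Id1 and Id3 fell from 42.3 ± 8.95 to 11.2 ± 3.54 FPKM (change -1.84, limma adjusted p = 2.69e-05) and from 26.1 ± 3.78 to 11.6 ± 2.62 FPKM (change -1.11, limma adjusted p = 3.98e-05). Smad1 changed by -0.51 (limma adjusted p = 0.000513) and Smad5 by -0.33 (limma adjusted p = 0.00534), of which Smad5 was not called under the median-ratio factor (change -0.16, adjusted p = 0.172). In the non-Smad arm, 6 of 9 genes were lower and 0 higher (4 and 0 under the median-ratio factor). They included the adaptors Shc1 (change -0.53, limma adjusted p = 0.00371) and Daxx (change -0.54, limma adjusted p = 0.000819) and the kinase partners Traf6 (change -0.41, limma adjusted p = 0.00113) and Tab2 (change -0.40, limma adjusted p = 0.00798). Tab2 was not called under the median-ratio factor (change -0.22, adjusted p = 0.126).

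**Figure D4:**
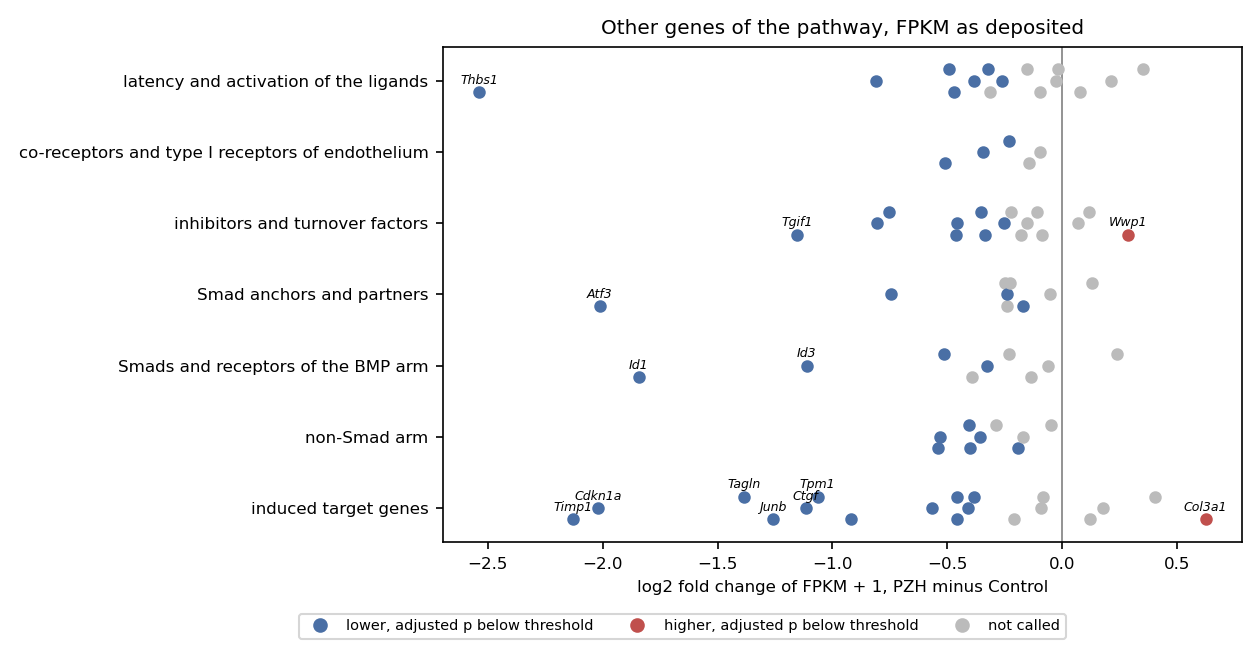
Change (log2 of FPKM + 1, PZH minus control, 6 mice per group, deposited values) of each of the 82 other pathway genes, 1 point per gene, by list. Blue points were called lower, red points higher and grey points were not called, and names mark genes called higher or changed by less than -1. Thbs1 lies furthest to the left (-2.54), and Wwp1 and Col3a1 are the only red points.

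Genes that TGF-beta is known to induce were the list with the largest median change, -0.46, with 12 of 19 lower and 1 higher (11 and 3 under the median-ratio factor). Timp1, an inhibitor of matrix proteases, had 7.14 to 13.4 FPKM in control mice and 1.06 to 2.501 FPKM in PZH mice, without overlap. It fell from 10.5 ± 2.50 to 1.61 ± 0.541 FPKM (change -2.13, limma adjusted p = 7.17e-06). The cell cycle inhibitor Cdkn1a fell from 37.4 ± 5.52 to 8.41 ± 0.815 FPKM (change -2.02, limma adjusted p = 2.61e-07). The contractile genes Tagln and Acta2 fell from 15.99 ± 3.35 to 5.54 ± 1.505 FPKM (change -1.38, limma adjusted p = 3.97e-05) and from 12.9 ± 3.77 to 6.51 ± 2.99 FPKM (change -0.92, limma adjusted p = 0.0123). Ctgf, a matrix-associated growth factor, fell from 7.88 ± 2.36 to 3.05 ± 0.783 FPKM (change -1.12, limma adjusted p = 0.000372). Junb, a subunit of the transcription factor AP-1, fell from 17.0 ± 5.97 to 6.38 ± 2.03 FPKM (change -1.26, limma adjusted p = 0.00104). Several of these genes, such as Cdkn1a and Junb, are induced by other stress signals as well.

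Among the fibrillar collagens the called change was upwards. Col3a1 was higher, at 54.5 ± 9.83 FPKM in the PZH group against 35.8 ± 10.1 FPKM among controls (change 0.62, limma adjusted p = 0.0146). Col1a1 was not called, at 23.0 ± 6.84 and 20.3 ± 6.01 FPKM (change 0.18, limma adjusted p = 0.556). Under the median-ratio factor Col1a2 (change 0.59, adjusted p = 0.0395) and Postn (change 0.30, adjusted p = 0.035) were called higher besides Col3a1.

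Markers of the cells in the liver moved in different directions beside these values. Of 8 hepatocyte markers 5 were higher and 1 lower, with a summed level of 22081 to 35717 FPKM in control mice and 40038 to 55847 FPKM in PZH mice. Of 8 hepatic stellate cell markers 2 were higher and 1 lower (182 to 262 FPKM in control and 226 to 288 FPKM in PZH mice, in which order the next sums are given), and of 6 myofibroblast markers, all of them also in the list of induced genes, 1 was higher and 3 lower (68.8 to 119 and 79.1 to 132 FPKM). Kupffer cell and macrophage markers were higher for 3 and lower for 2 of 8 (193 to 256 and 203 to 300 FPKM), and sinusoidal endothelial markers lower for 2 of 8 (122 to 137 and 116 to 144 FPKM). Cholangiocyte markers were lower for 2 of 6 (99.0 to 162 and 67.0 to 134 FPKM), neutrophil markers for 1 of 6 (18.4 to 62.6 and 13.2 to 141 FPKM), and lymphocyte markers for 0 of 8 (4.62 to 7.47 and 5.05 to 8.09 FPKM). Under the median-ratio factor the markers called higher and lower were 7 and 0 for hepatocytes, 5 and 1 for stellate cells, 2 and 3 for myofibroblasts, 5 and 1 for Kupffer cells and macrophages, 2 and 1 for sinusoidal endothelium, 1 and 2 for cholangiocytes, 0 and 1 for neutrophils and 2 and 0 for lymphocytes. Of all genes, 12.7% were higher and 32.1% lower on the deposited values, and 19.8% and 19.3% under the median-ratio factor. Of these markers Epcam and Ly6g had a value of 0 in some mouse, and only the hepatocyte sums did not overlap between the groups. The part of cell composition in the levels of the 10 genes was not tested.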

How the data were processed

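Liver RNA of 12 mice was sequenced by the authors as rRNA-depleted, strand-specific libraries with paired reads. Reads were trimmed with Trimmomatic, mapped to GRCm38 with HISAT2 and assembled with StringTie on the Ensembl annotation. The authors deposited FPKM per transcript and mouse, and the protein-coding table was used, with columns assigned by the group and number in their names. The lncRNA table was not used here. Column sums of FPKM were 325302 to 370426. The number of reads behind a value was not recovered, so the precision is that of the spread between mice, which are separate animals.

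Transcripts were assigned to genes with GENCODE M21 (29876 of 29883 matched) and summed. Differences were tested on log2(FPKM + 1) with limma 3.58.1 in R 4.3.3, default moderation and no filter, with Benjamini-Hochberg adjustment. Shares of transcripts in the gene sum were tested by two-sided exact permutation over all labellings of the mice. The procedure was tested on simulated data, and the remaining steps used Python 3.11.15. Alternatives were each mouse left out in turn, a block by mouse number, a median-ratio factor, an equal sum per mouse, a mean-variance trend, no moderation, a pseudocount of 0.1, and only features averaging 1 FPKM or more.

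The members, lists and tests were chosen with earlier results of these data known. Named were all 10 members, every called transcript and the commonest of each gene, up to 4 called genes of largest change per list with 10 further genes whatever their result (Ctgf, Col1a1, Acta2, Skil, Smad6, Pmepa1, Bambi, Tgfbr3, Eng and Thbs1), and the 3 nearest genes of Smad7 and Smad3. Wwp1, Col3a1, Col1a2, Postn, Tgfb2-206, Tgfbr1-202, Smad4-202 and Smad7-204 were named after their values were seen. Hgs matched 2 gene identifiers and was left out, Foxh1, Cited1 and Bmpr1b were not matched, and Ctgf was matched as Ccn2. Of the genes in the lists, 1 is not reported here and was left out of all counts of the lists.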

Additional observations from a re-analysis of the deposited data

Results flagged for a closer look

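In each group of 6 mice the highest and lowest value of each of the 10 genes and 24 transcripts was compared with the others. A total of 6 values stood apart by more than Dixon's 95% limit. Chance reaches that limit in about 1 of 20 groups, so some values would pass it by chance over this many comparisons. PZH 1 was low for the gene Tgfbr2 (5.94 FPKM, the other PZH mice 8.45 to 9.80) and for its transcript Tgfbr2-202 (4.35 FPKM, the others 6.48 to 7.44). Smad2-206 was listed at 1.26 FPKM in control 4 and at 0 in the other control mice. Smad3-205 was high in PZH 6 (0.345 FPKM, the others 0.0253 to 0.121) and low in control 1 (0.0546 FPKM, the others 0.359 to 0.548). Tgfbr1-205 was low in PZH 6 (0.0383 FPKM, the others 0.821 to 1.13). None of these values was left out of the comparisons.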

How the results depend on the processing

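The calls of the 10 gene sums were the same (8 lower, 0 higher) under a pseudocount of 0.1, the filter, an equal sum per mouse, a mean-variance trend, no moderation and the mouse number as a block. The median-ratio factor gave 4 lower and 1 higher, and it also gave 3 lower member transcripts and 29 lower (44 as deposited) and 7 higher pathway genes. Of the pathway genes named above, it turned the direction of Tgfbr3 (0.0635), Eng (0.0323) and Sp1 (0.0081), of which Sp1 had been called. Other genes of the lists turned as well, such as Ltbp4 (-0.15 to 0.01) and Furin (-0.10 to 0.09), neither of them called. Leaving out 1 mouse at a time gave 7 to 8 lower and 0 higher member genes, the 7 without control 5. It gave 5 to 9 lower member transcripts, with 5 without PZH 4 or control 5, and 0 to 1 higher, the 1 without control 4. Pathway genes were lower for 36 to 45 and higher for 2 to 4, the 4 without PZH 1. Tgfb2-201 gained a call without PZH 2 (adjusted p = 0.0298) or control 1 (adjusted p = 0.035). The labels do not say whether the mouse numbers pair the groups. Deviations of same-numbered mice correlated between -0.0784 and 0.0929, which cannot decide it, since a weak pairing could give such values. With the number as a block 4 member transcripts were lower (9 without it) and 0 shares were called. The cause of these differences was not tested. Of the 24 member transcripts, 12 had a mean FPKM of at least 1.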
